A study of Mus musculus with 24 samples.

Results

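Chemokines are small secreted proteins that steer the movement of cells, and 53 genes of their ligands and receptors were read in sorted mouse mammary cells. The rule went by gene symbol, though the set was picked with earlier results of these data known. It took the Ccl, Cxcl and Cx3cl1 ligands, the Ccr, Cxcr and Cx3cr1 receptors and the atypical receptors Ackr1 to Ackr4. They made up 33 ligands (13 CXC, 19 CC and 1 CX3C) and 20 receptors (6 CXC, 9 CC, 1 CX3C and 4 atypical), of 19937 genes measured. Each gene was read by the probe set with the highest mean over all 24 arrays, a choice that concerned only 2 of the 53.

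The cells came from mutant mice carrying Lgr5-creERT2 and the PIK3CA H1047R transgene, an activated form of the catalytic subunit of PI3-kinase, and from Lgr5-creERT2 control mice without it. All mice were of mixed FVB/C57BL6 background, had received Tamoxifen 4 weeks earlier, and their ages were not analysed here. The labels call the tissue of both genotypes preneoplastic, and the Cre recombinase was active only where the Lgr5 gene is expressed. Glands were pooled from 2 to 3 mice at the same stage of the estrous cycle, and cells without the leukocyte antigen CD45 were sorted in 3 separate sortings. Each genotype gave 4 groups of 3 arrays. They were basal GFP+ (CD24 low, Sca1-), basal GFP-, luminal Sca1- and luminal Sca1+ (CD24 high), where GFP marks cells expressing Lgr5, the transgene or both. The mutant luminal groups were GFP+ and the control luminal groups GFP-, so genotype and GFP state cannot be told apart there. Control mice lack the transgene, so their GFP marks Lgr5 alone, and the basal gates of the genotypes may hold different cells. RNA of 250 cells was amplified before it was hybridised to an Affymetrix Gene 1.0 ST array, whose deposited values are on a log2 scale. A log2 difference of 1 is a 2-fold change.

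Chemokines are grouped by the spacing of their first cysteines into CC, CXC and CX3C families, and they act through receptors coupled to inhibitory G proteins. CXC ligands such as Cxcl1 and Cxcl2 draw neutrophils, CC ligands such as Ccl2 and Ccl7 draw monocytes, and Cxcl12 holds Cxcr4-bearing cells in place. Epithelial cells make many of the ligands themselves, often after NF-kB signalling, while atypical receptors such as Ackr3 bind and remove ligands without G protein signalling.

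Promoters of CXC ligands on chromosome 5 are shown first. The highest and lowest group means differed by 6.99 for Cxcl15 and 5.51 for Cxcl2, among the widest spans of the members. The spans were 2.71 for Cxcl10, 2.68 for Cxcl1 and 0.20 for Cxcl3. The genes lie close together, in the order Cxcl5, Ppbp, Pf4, Cxcl3, Cxcl15, Cxcl1 and Cxcl2. The 250 bases before each start are from RefSeq (build GRCm38.p6), 5′ to 3′ on the strand of the gene. Capitals mark matches to a general form of the NF-kB motif (GGGA, any 2 bases, then TTCC), and in Cxcl10 also the match to a general form of the interferon-stimulated response element (GAAA, any 2 bases, then GAAA).
Cxcl1 promoter, chr5:90890995-90891244 (+ strand): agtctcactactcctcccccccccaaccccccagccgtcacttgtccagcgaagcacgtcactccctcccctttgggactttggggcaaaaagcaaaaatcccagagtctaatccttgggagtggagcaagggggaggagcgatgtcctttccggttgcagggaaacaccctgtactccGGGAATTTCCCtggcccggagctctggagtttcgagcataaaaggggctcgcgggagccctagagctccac
Cxcl2 promoter, chr5:90903649-90903898 (+ strand): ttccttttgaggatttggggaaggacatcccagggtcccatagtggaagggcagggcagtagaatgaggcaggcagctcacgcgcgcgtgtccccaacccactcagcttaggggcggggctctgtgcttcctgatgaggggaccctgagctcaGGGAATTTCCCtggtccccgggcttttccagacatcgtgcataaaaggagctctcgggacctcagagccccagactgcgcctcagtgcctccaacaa
Cxcl3 promoter, chr5:90785851-90786100 (+ strand): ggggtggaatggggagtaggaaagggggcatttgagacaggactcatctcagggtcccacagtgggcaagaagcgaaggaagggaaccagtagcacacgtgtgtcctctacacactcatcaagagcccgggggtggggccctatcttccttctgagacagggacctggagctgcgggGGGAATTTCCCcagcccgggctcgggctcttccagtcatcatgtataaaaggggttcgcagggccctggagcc
Cxcl10 promoter, chr5:92348890-92349139 (- strand): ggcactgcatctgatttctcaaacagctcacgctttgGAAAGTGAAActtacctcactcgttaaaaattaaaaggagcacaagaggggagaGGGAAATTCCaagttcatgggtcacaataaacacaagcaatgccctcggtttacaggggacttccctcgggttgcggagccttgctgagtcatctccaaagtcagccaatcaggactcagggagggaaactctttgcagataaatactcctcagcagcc
Cxcl15 promoter, chr5:90794284-90794533 (+ strand): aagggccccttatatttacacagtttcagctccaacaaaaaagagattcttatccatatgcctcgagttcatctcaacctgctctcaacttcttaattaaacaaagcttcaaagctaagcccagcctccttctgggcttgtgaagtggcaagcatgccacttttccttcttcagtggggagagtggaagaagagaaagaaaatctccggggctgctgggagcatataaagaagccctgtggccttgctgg
Both motifs, and TATAAA, were searched on both strands. Cxcl1, Cxcl2 and Cxcl3 held the same 10 letters, starting 71, 97 and 73 bases before the start, and matches on the strands overlapped there. Cxcl10 held a match starting 159 bases before its start, and its interferon-stimulated response element started 213 bases before it. The Cxcl15 promoter held neither. The NF-kB motif was present in 397 of 32851 RefSeq promoters (1.208%) and in those of 6 of the 39 members with a listed promoter, where Ccr3 and Ccl1 were the others. The interferon-stimulated response element was present in 2.977% of promoters and in 3 of the 39 members. TATAAA was present in 12.368% of promoters and in 12 of the 39. A match is a description of the letters only.

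Across the 8 groups, 29 of the 53 members were above background in at least 1 group, against 63.3% of all genes. A member counted as above background in a group when all 3 arrays lay above the 95th percentile, on the same array, of 1203 genes for receptors of smell, pheromones and trace amines. That limit lay between 4.16 and 4.51 on the log2 scale. Probe sets that carry several symbols were not counted as members. Of those with Ccl27a and Ccl27b, 1 was above the limit on every array, with group means of 6.57 to 8.22. Another with the same symbols had group means of 3.54 to 4.20 and was above background in no group. A probe set of several Ccl21 symbols is described at the end. Among ligands, 21 of 33 were above background somewhere (9 of 13 CXC, 11 of 19 CC, and Cx3cl1), and among receptors, 8 of 20. In all 8 groups 15 members were above it, against 46.5% of all genes: Cxcl1, Cxcl2, Cxcl12, Cxcl14, Cxcl16, Cxcl17, Ccl2, Ccl5, Ccl6, Ccl11, Ccl19, Cx3cl1, Cxcr4, Ccr7 and Cx3cr1. Known pairs were above background on both sides in every group: Cxcl12 with Cxcr4, Ccl19 with Ccr7 and Cx3cl1 with Cx3cr1. Of these, Cx3cr1 lay close to the limit, and the values of Ccl19 are uncertain because its probe sets disagreed. Another Ccl19 probe set was above the limit on only 2 of 3 arrays in mutant and control basal GFP+ and in mutant basal GFP- cells. The receptors of other ligands above it, Cxcr2 for Cxcl1 and Cxcl2, Ccr2 for Ccl2 and Ccl7, Cxcr6 for Cxcl16 and Ccr6 for Ccl20, were above it in no group.

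Between 18 and 25 members were above background in each group. There were 24 in mutant and 18 in control basal GFP+ cells, against 57.3% and 52.3% of all genes. In basal GFP- cells they were 22 in mutant and 20 in control cells (56.3% and 55.2% of all genes). Luminal Sca1- cells had 20 in mutant and 21 in control cells (55.4% and 53.4%), and luminal Sca1+ cells 25 in mutant and 19 in control cells (56.9% and 54.1%). The background limits themselves were 4.16 to 4.22 on the mutant and 4.33 to 4.51 on the control basal GFP+ arrays.

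**Figure D1:**
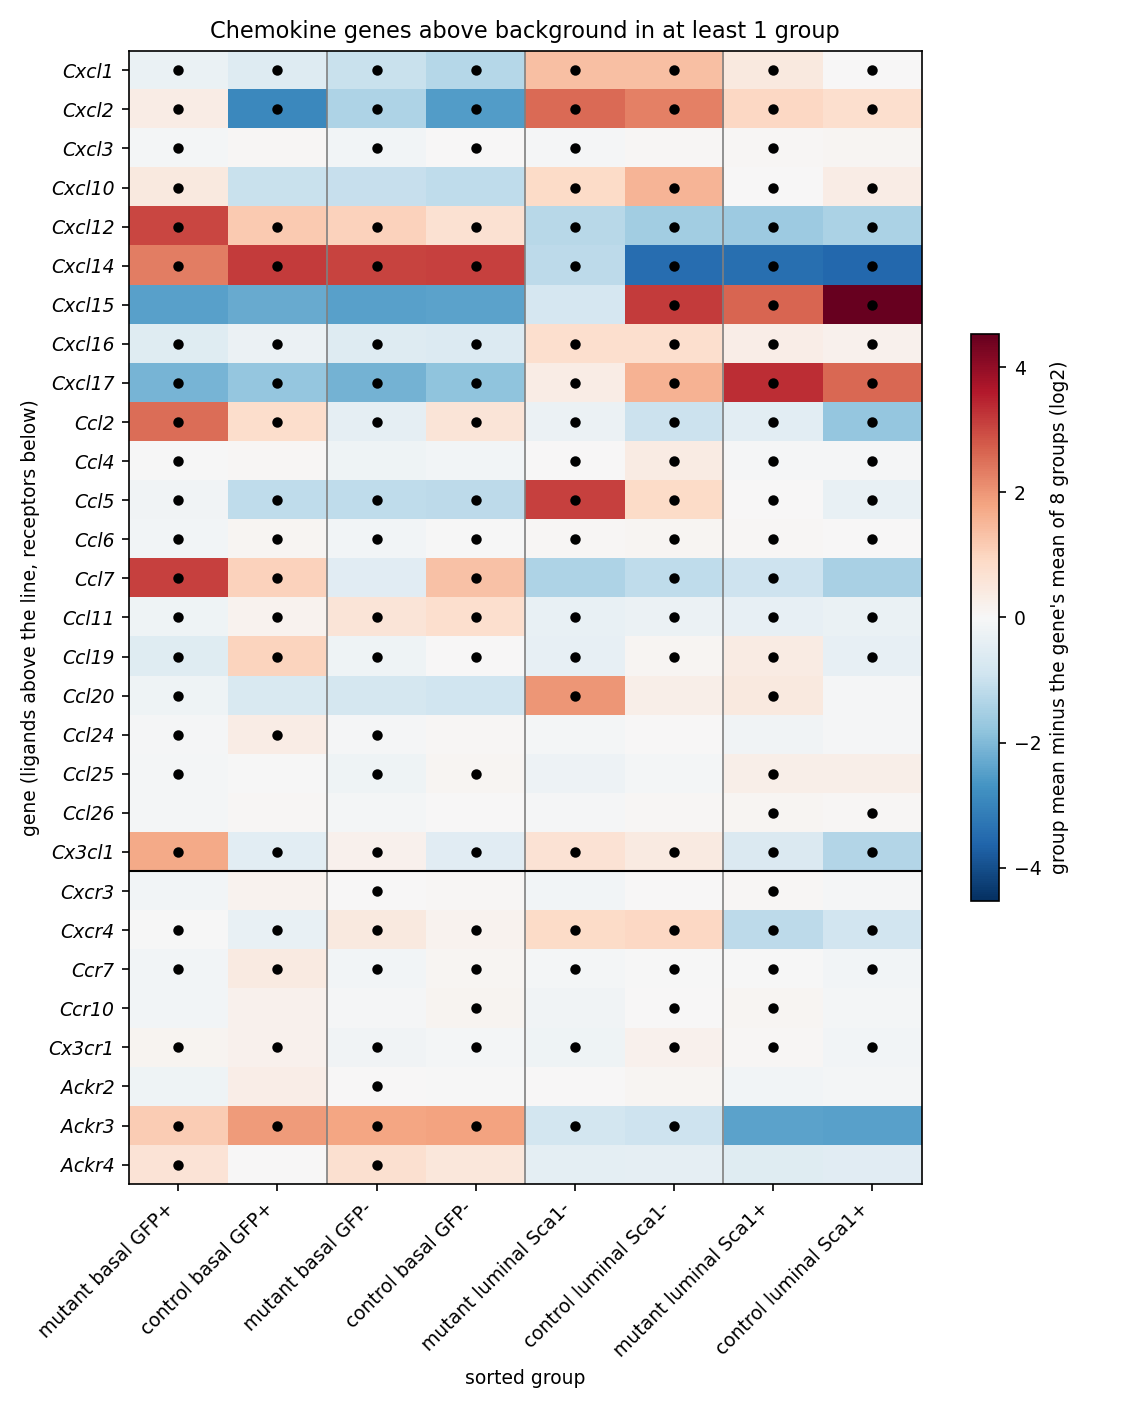
Heatmap of the 29 members above background in at least 1 group: each cell is the mean log2 level of a group of 3 arrays minus the mean of the gene's 8 group means, black dots mark groups with all 3 arrays above the background limit, and a line divides ligands (above) from receptors (below). Cxcl14, Cxcl12 and Ackr3 are high in the basal columns, and Cxcl1, Cxcl2, Cxcl15 and Cxcl17 in luminal columns.

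The other 24 members were above background in no group. They were Cxcl5, Cxcl9, Cxcl11 and Cxcl13, Ccl1, Ccl3, Ccl8, Ccl9, Ccl12, Ccl17, Ccl22 and Ccl28, Cxcr1, Cxcr2, Cxcr5 and Cxcr6, Ccr1, Ccr2, Ccr3, Ccr4, Ccr6, Ccr8 and Ccr9, and Ackr1. Their array values ran from 3.40 to 6.18, and their group means spanned 0.14 to 0.97. The highest of these values was a single array of Ccl17, a ligand of Ccr4, which had 6.18, 4.84 and 4.15 in mutant basal GFP+ cells. Most of the receptors in this set are known from leukocytes, which the CD45 gate removes. Ptprc, the gene of CD45, had group means of 4.06 to 4.35 and was above background only in mutant basal GFP- cells. In these bulk samples fewer cells of a type and less RNA per cell cannot be told apart.

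Of the 29 members, 18 had group means spanning more than 1 on the log2 scale and 11 did not. Of these 11, 8 spread little over the arrays and were called in no comparison. Cxcl3, a neutrophil ligand, ran from 4.19 to 4.87, Ccl6 from 4.30 to 4.74, Ccl24, an eosinophil ligand, from 3.93 to 4.85, and Ccl26 from 4.10 to 4.45. Cxcr3, the receptor of Cxcl9 and Cxcl10, ran from 3.97 to 4.56, Ccr10 from 3.95 to 4.77, and Cx3cr1, the receptor of Cx3cl1, from 4.49 to 5.33. Cxcl3 lay near the background limit, and the part of the 10 promoter letters it shares with Cxcl1 and Cxcl2 was not tested. Ccl25, a ligand of Ccr9, ran from 4.11 to 5.33, the widest range of the 8. Ccl11, another eosinophil ligand, belonged to the 18 and ran from 4.38 to 7.33. The high Ccl11 value was 1 array of mutant basal GFP- cells, which had 7.33, 4.42 and 4.46, against 6.35, 5.33 and 5.07 in control basal GFP- cells. Ccl11 was called in no comparison either.

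The gates were checked by their keratins. Krt5 and Krt14, of basal cells, had group means of 11.22 to 11.92 in basal and 5.21 to 8.96 in luminal groups. Krt8 and Krt18, of luminal cells, had 12.45 to 12.77 in luminal and 9.63 to 11.09 in basal groups. In basal GFP+ cells Lgr5 averaged 6.30 ± 0.90 in mutant and 9.47 ± 0.46 in control cells (SD, n = 3 each; log2 difference -3.16, adjusted p = 7.95e-05). Pik3ca averaged 8.07 ± 0.31 in mutant and 6.98 ± 0.27 in control basal GFP+ cells (1.09, adjusted p = 0.00435). Whether its probe set also reads the transgene was not tested. Fitted array weights were 1.71, 1.25 and 1.38 in mutant and 0.70, 0.42 and 0.65 in control basal GFP+ cells, and ran from 0.60 to 1.53 on the other arrays. Correlations between arrays of a group lay between 0.934 and 0.979.

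Luminal cells differed from basal cells mainly in CXC ligands, and in the same direction in both genotypes: Cxcl1, Cxcl2 and Cxcl17 were higher and Cxcl12, Cxcl14, Ccl7 and Ackr3 lower in luminal Sca1- cells. Of the 53 members, 11 were called in mutant luminal Sca1- against basal GFP+ cells (6 higher against 3.62% of all genes, 5 lower against 4.24%; in all 20.8% of members against 7.86% of all genes), and 8 in mutant luminal Sca1+ cells (2 higher against 4.73%, 6 lower against 4.99%; in all 15.1% against 9.72%). In control mice, luminal Sca1- against basal GFP- cells gave 11 (7 higher against 4.93%, 4 lower against 4.9%; in all 20.8% against 9.83%) and luminal Sca1+ cells 10 (5 higher against 7.35%, 5 lower against 5.77%; in all 18.9% against 13.1%). A gene was called when its adjusted p in the fit of all 24 arrays was under 0.05. Mutant comparisons were between GFP+ groups and control comparisons between GFP- groups. Cx3cl1 was lower in mutant luminal Sca1+ than in mutant basal GFP+ cells (-2.39, adjusted p = 6.9e-05). That call held under every refit, and Cx3cl1 was not called in the other luminal against basal comparisons. Some alternatives called it lower in mutant luminal Sca1- cells too, among them array weights (-1.04, adjusted p = 0.0285).

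Cxcl1, a neutrophil ligand, had 11.46, 11.77 and 11.49 in mutant luminal Sca1- cells, against 10.16, 10.29 and 9.28 in mutant basal GFP+ cells (1.67 ± 0.24 SE, adjusted p = 8.44e-05). Cxcl2, its close relative, had 11.38, 11.44 and 11.46 in mutant luminal Sca1- cells, against 9.47, 10.10 and 7.95 in mutant basal GFP+ cells (2.25 ± 0.46, adjusted p = 0.00333). Mutant basal GFP+ array 3 was the low one for both genes. Neither was called in mutant luminal Sca1+ against basal GFP+ cells, where Cxcl2 had 10.22, 9.77 and 9.41 in the luminal cells. In control mice Cxcl1 had 11.53, 11.79 and 11.38 in luminal Sca1- and 9.97, 10.22 and 10.44 in luminal Sca1+ cells, against 8.84, 8.66 and 9.20 in basal GFP- cells. Cxcl2 had 10.97, 11.34 and 11.09 in control luminal Sca1- and 9.37, 9.80 and 9.63 in luminal Sca1+ cells, against 6.67, 6.12 and 6.19 in basal GFP- cells. Both genes were high on every luminal array, and no luminal array overlapped a basal one in the control. The luminal Sca1- differences in control mice were 2.67 ± 0.24 for Cxcl1 (adjusted p = 3.51e-07) and 4.81 ± 0.46 for Cxcl2 (adjusted p = 9.09e-07). In luminal Sca1+ cells they were 1.31 ± 0.24 (adjusted p = 0.000667) and 3.28 ± 0.46 (adjusted p = 5.25e-05).

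Cxcl15, a ligand known from lung and other epithelia of the mouse, was above background only in luminal groups. In the mutant it had 7.37, 8.47 and 9.93 in luminal Sca1+ cells, against 3.48, 3.46 and 3.52 in basal GFP+ cells, at least 21.1-fold higher (adjusted p = 0.000661). It had 9.02, 8.64 and 9.75 in control luminal Sca1- and 10.41, 10.18 and 10.85 in control luminal Sca1+ cells, against 3.49, 3.53 and 3.61 in control basal GFP- cells. All 12 basal arrays of the study lay between 3.43 and 3.74, below the background limit. Cxcl15 was therefore at least 28.7-fold higher in control luminal Sca1- (adjusted p = 0.000326) and at least 73.1-fold higher in control luminal Sca1+ cells (adjusted p = 2.12e-05). These bounds set the luminal mean against the background limits of the basal arrays.

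Cxcl17, a ligand of mucosal epithelia, had 6.29, 7.30 and 6.95 in mutant luminal Sca1- and 10.19, 9.54 and 9.83 in mutant luminal Sca1+ cells, against 4.49, 4.39 and 4.36 in mutant basal GFP+ cells. In control mice it had 8.06, 7.85 and 8.30 in luminal Sca1- and 9.77, 8.65 and 8.93 in luminal Sca1+ cells, against 4.40, 4.73 and 4.93 in basal GFP- cells. All 12 basal arrays of both genotypes lay between 4.28 and 4.97, and every luminal array was above them. The mutant differences were 2.43 ± 0.26 in Sca1- cells (adjusted p = 3.91e-06) and 5.44 ± 0.26 in Sca1+ cells (adjusted p = 7.67e-11). The control differences were 3.38 ± 0.26 (adjusted p = 5.86e-08) and 4.43 ± 0.26 (adjusted p = 1.05e-09).

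Cxcl10, an interferon-induced ligand of Cxcr3, had 7.15, 7.24 and 6.59 in control luminal Sca1- and 5.32, 6.24 and 5.72 in luminal Sca1+ cells, against 3.92, 4.48 and 4.46 in control basal GFP- cells, where 2 of 3 arrays were above the limit. It was higher in luminal Sca1- cells (2.71 ± 0.43, adjusted p = 0.000297). In luminal Sca1+ cells the difference was 1.48 ± 0.43 (adjusted p = 0.0286), and the call was lost without any of 5 of the 6 arrays, all but luminal array 1 (adjusted p 0.0505 to 0.128). Cxcl16, a membrane-bound ligand, had 8.77, 9.23 and 8.98 in control luminal Sca1- cells, against 8.06, 7.27 and 7.46 in control basal GFP- cells. Its difference of 1.40 ± 0.35 (adjusted p = 0.0154) was lost without basal array 2, basal array 3 or luminal array 2 (adjusted p 0.051 to 0.0685). Ccl4, a ligand of monocytes and T cells, had 4.54, 4.58 and 5.14 in control luminal Sca1- cells, against 4.11, 4.26 and 4.40 in control basal GFP- cells, where 1 array was above the limit. Its difference was 0.50 ± 0.13 (adjusted p = 0.0161), and without luminal array 3 it was 0.31 (adjusted p = 0.0807) and without basal array 1 it was 0.42 (adjusted p = 0.0811).

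Cxcl14 and Cxcl12 were lower in luminal than in basal cells in all 4 comparisons. Cxcl14, a ligand of many epithelia, had 7.77, 7.21 and 7.62 in mutant luminal Sca1- and 5.90, 5.10 and 4.89 in mutant luminal Sca1+ cells, against 11.00, 10.89 and 11.16 in mutant basal GFP+ cells. In control mice it had 5.30, 5.35 and 5.10 in luminal Sca1- and 5.45, 4.73 and 5.28 in luminal Sca1+ cells, against 11.88, 11.74 and 11.83 in basal GFP- cells. It was high on every basal array and nearest to the limit in control luminal cells. The mutant differences were -3.48 ± 0.21 in Sca1- cells (adjusted p = 2.43e-09) and -5.72 ± 0.21 in Sca1+ cells (adjusted p = 2.67e-12). The control differences were -6.56 ± 0.21 (adjusted p = 5.09e-13) and -6.66 ± 0.21 (adjusted p = 2.33e-13).

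Cxcl12, the ligand of Cxcr4 and Ackr3, had 5.68, 4.96 and 5.56 in mutant luminal Sca1- and 5.08, 5.0 and 5.02 in mutant luminal Sca1+ cells, against 9.63, 9.96 and 9.49 in mutant basal GFP+ cells. In control mice it had 5.01, 4.95 and 5.35 in luminal Sca1- and 5.24, 4.99 and 5.43 in luminal Sca1+ cells, against 7.85, 6.94 and 7.30 in basal GFP- cells. Every luminal array lay below every basal array. The Sca1- differences were -4.30 ± 0.25 in mutant (adjusted p = 1.31e-09) and -2.26 ± 0.25 in control mice (adjusted p = 5.01e-06). In Sca1+ cells the mutant difference was -4.66 ± 0.25 (adjusted p = 2.77e-10), and the control one was called too (adjusted p = 6e-06).

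**Figure D2:**
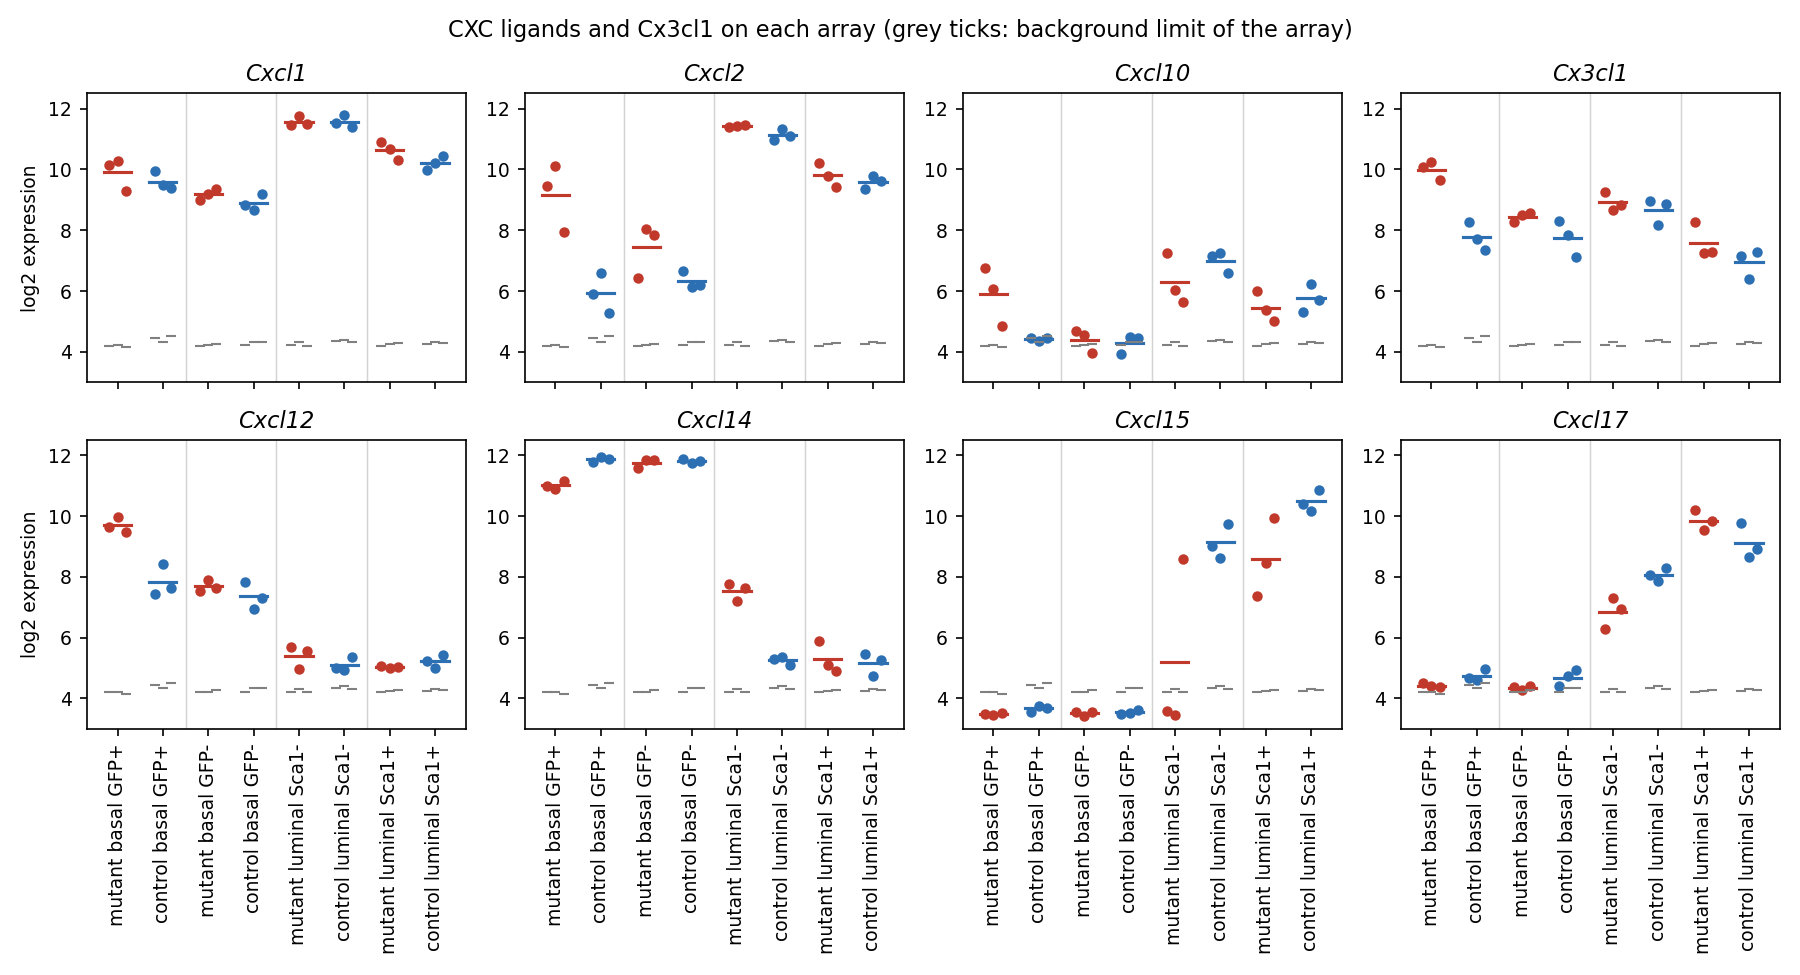
Log2 levels of 8 CXC and CX3C ligands on each array, one panel per gene: red points are mutant and blue points control arrays, horizontal bars are means of 3 arrays, and grey ticks are the background limits of the arrays. Cxcl15 lies below the limits on all 12 basal arrays, and Cxcl12 is highest in mutant basal GFP+ cells.

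Among CC ligands the basal side was led by Ccl7 and Ccl2, which draw monocytes through Ccr2. Ccl7 had 4.21, 4.53 and 4.30 in mutant luminal Sca1- and 5.64, 4.37 and 4.40 in mutant luminal Sca1+ cells, against 8.82, 9.29 and 8.35 in mutant basal GFP+ cells. In control mice it had 4.48, 4.59 and 4.72 in luminal Sca1- and 4.14, 4.32 and 4.32 in luminal Sca1+ cells, against 7.15, 7.37 and 6.62 in basal GFP- cells. Most luminal values were near the limit, and all were below the basal ones in these comparisons. Ccl7 differed in luminal Sca1- cells by -4.47 ± 0.56 in mutant (adjusted p = 2.3e-05) and -2.45 ± 0.56 in control mice (adjusted p = 0.00773). In Sca1+ cells the differences were -4.01 ± 0.56 in mutant (adjusted p = 6.07e-05) and -2.79 ± 0.56 in control mice (adjusted p = 0.00199). In mutant luminal Sca1- and control luminal Sca1+ cells 2 of 3 arrays were above the limit.

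Ccl2 had 6.63, 5.57 and 5.93 in mutant luminal Sca1- and 6.60, 5.56 and 5.35 in mutant luminal Sca1+ cells, against 8.72, 9.52 and 8.34 in mutant basal GFP+ cells. In control cells it had 4.56, 4.67 and 4.48 in luminal Sca1+ cells, against 7.66, 7.48 and 5.63 in basal GFP- cells. In control luminal Sca1- cells it had 4.97, 5.20 and 5.87, which overlapped the control basal GFP- arrays, and it did not pass the test (-1.58, adjusted p = 0.216). The groups did not overlap in the other 3 comparisons, with differences of -2.81 ± 0.72 (adjusted p = 0.0191), -3.02 ± 0.72 (adjusted p = 0.00936) and -2.35 ± 0.72 (adjusted p = 0.0379). The mutant Sca1- call was lost without basal array 1 or 2 or luminal array 2 or 3 (adjusted p 0.0505 to 0.0895), and the mutant Sca1+ call without basal array 2 (adjusted p = 0.0514). The control call was lost without any array but basal array 3 (adjusted p 0.082 to 0.133).

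Ccl5, a T cell and monocyte ligand, and Ccl20, the ligand of Ccr6, were higher in mutant luminal Sca1- cells. Ccl5 had 9.64, 9.19 and 9.08 in mutant luminal Sca1- cells, against 5.34, 7.89 and 4.99 in mutant basal GFP+ cells (3.23 ± 0.84, adjusted p = 0.0206). Ccl20 had 7.96, 7.14 and 5.97 in mutant luminal Sca1- cells, against 4.32, 5.96 and 4.16 in mutant basal GFP+ cells (2.21 ± 0.59, adjusted p = 0.0256). Basal array 2 was high for both genes and came close to the luminal arrays. Both calls were lost without basal array 1 or 3 or luminal array 1 or 2, with adjusted p of 0.0548 to 0.117 for Ccl5 and 0.08 to 0.144 for Ccl20. Cxcl16 was also higher there, with 8.87, 9.20 and 8.92 in mutant luminal Sca1- cells, against 7.70, 7.83 and 7.51 in mutant basal GFP+ cells (1.32 ± 0.35, adjusted p = 0.0251; lost without any array but basal array 2, adjusted p 0.0536 to 0.096). Ccl5 and Ccl20 did not pass the test in control luminal Sca1- or Sca1+ against basal GFP- cells (adjusted p 0.158 to 0.624).

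Ackr3, which takes up Cxcl12, was the only receptor called between luminal and basal cells in these 4 comparisons. It had 6.24, 5.26 and 5.64 in mutant luminal Sca1- and 4.13, 4.11 and 4.06 in mutant luminal Sca1+ cells, against 7.62, 7.96 and 7.52 in mutant basal GFP+ cells. In control mice it had 5.01, 5.72 and 6.04 in luminal Sca1- and 3.91, 4.11 and 4.17 in luminal Sca1+ cells, against 8.30, 8.58 and 8.19 in basal GFP- cells. The Sca1+ arrays were all below background. Ackr3 differed in luminal Sca1- cells by -1.99 ± 0.26 in mutant (adjusted p = 3.95e-05) and -2.77 ± 0.26 in control mice (adjusted p = 8.3e-07). In Sca1+ cells it was at least 11.0-fold lower in mutant (adjusted p = 1.78e-08) and at least 16.9-fold lower in control mice (adjusted p = 1.64e-09). Ackr4, a scavenger of CC ligands, was above background only in mutant basal GFP+ cells (5.54, 4.75 and 4.68) and mutant basal GFP- cells (4.74, 6.05 and 4.53). Control basal arrays of Ackr4 ran from 3.95 to 5.74 and luminal arrays of both genotypes from 3.73 to 4.15, and no comparison called it. Some alternatives called Ackr4 lower in luminal cells, among them array weights in mutant Sca1- (-1.12, adjusted p = 0.0271) and Sca1+ cells (-1.19, adjusted p = 0.0121). Cxcr4 passed with array weights in mutant Sca1+ cells (-1.18, adjusted p = 0.0315). It passed with only the groups compared in mutant Sca1- cells (0.88, adjusted p = 0.00419).

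Within the luminal cells, Sca1+ cells had less Cxcl1, Cx3cl1, Cxcr4 and Ackr3 and more Cxcl17 than Sca1- cells in both genotypes. In mutant mice 8 members were called (2 higher against 1.81% of all genes, 6 lower against 1.85%; in all 15.1% against 3.66%). In control mice 5 were called (1 higher against 2.08%, 4 lower against 1.61%; in all 9.43% against 3.69%). Sca1+ luminal cells are known to hold most of the hormone receptor-positive cells of the gland, and Sca1- cells most of the luminal progenitors.

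Cx3cl1, a membrane-anchored ligand of Cx3cr1, had 8.27, 7.23 and 7.28 in mutant Sca1+ cells, against 9.25, 8.68 and 8.83 in mutant Sca1- cells (-1.32 ± 0.34, adjusted p = 0.0339). In control mice it had 7.15, 6.40 and 7.27 in Sca1+ cells, against 8.95, 8.17 and 8.85 in Sca1- cells (-1.72 ± 0.34, adjusted p = 0.00573). Cxcr4, the receptor of Cxcl12, had 6.99, 5.81 and 5.91 in mutant Sca1+ cells, against 8.35, 8.23 and 8.31 in mutant Sca1- cells (-2.06 ± 0.43, adjusted p = 0.00994). All Sca1- arrays of both genes were above all Sca1+ arrays. In control mice Cxcr4 had 6.10, 6.07 and 7.54 in Sca1+ cells, against 8.37, 8.09 and 8.62 in Sca1- cells (-1.79 ± 0.43, adjusted p = 0.0264). The mutant Cxcr4 call was lost without Sca1+ array 2 or 3 (adjusted p 0.0577 and 0.0598) and the control one without Sca1+ array 1 or 2 or Sca1- array 1 or 3 (adjusted p 0.0736 to 0.112). The mutant Cx3cl1 call was lost without any array but Sca1+ array 1 (adjusted p 0.0586 to 0.169).

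Cxcl1 was lower in Sca1+ than in Sca1- cells by -0.95 ± 0.24 in mutant (adjusted p = 0.0289) and -1.35 ± 0.24 in control mice (adjusted p = 0.002). The mutant call was lost without any array but Sca1+ array 1 (adjusted p 0.0629 to 0.169). Ackr3 was at least 2.77-fold lower in mutant Sca1+ (adjusted p = 0.00117) and at least 2.47-fold lower in control Sca1+ cells (adjusted p = 0.00185). Cxcl17 was higher in Sca1+ cells, by 3.01 ± 0.26 in mutant (adjusted p = 1.75e-06) and 1.05 ± 0.26 in control mice (adjusted p = 0.0311). The control Cxcl17 call was lost without Sca1+ array 1 or 3 or Sca1- array 1 or 2 (adjusted p 0.0548 to 0.15). It was also lost after quantile normalization, at 0.88 (adjusted p = 0.0949). Cxcl2 was lower on every Sca1+ array than on any Sca1- array in both genotypes but did not pass the test (-1.62, adjusted p = 0.0605 in mutant and -1.53, adjusted p = 0.0791 in control mice), and it passed under 8 alternatives in mutant and 3 in control mice.

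The other 3 calls were in the mutant alone. The test of whether the difference itself differed between genotypes passed for Cxcl14, as given below, but not for Ccl5 or Cxcl15. For Cxcl15 it passed only without mutant Sca1- array 3 (3.73, adjusted p = 0.0151). Cxcl14 had 5.90, 5.10 and 4.89 in mutant Sca1+ cells, against 7.77, 7.21 and 7.62 in mutant Sca1- cells (-2.24 ± 0.21, adjusted p = 4.54e-06). Ccl5 had 8.01, 5.48 and 5.18 in mutant Sca1+ cells, against the high values of all 3 mutant Sca1- arrays given above (-3.08 ± 0.84, adjusted p = 0.0498; lost without any array but Sca1+ array 1, adjusted p 0.104 to 0.248). Cxcl15 had 7.37, 8.47 and 9.93 in mutant Sca1+ cells, against 3.58, 3.45 and 8.59 in mutant Sca1- cells (3.39 ± 0.90, adjusted p = 0.0425). Only Sca1- array 3 was above background and it overlapped the Sca1+ arrays. Without it no Sca1- array was above background and the call held (adjusted p = 6.28e-06). It was lost without Sca1- array 1 or 2 or Sca1+ array 2 or 3 (adjusted p 0.109 to 0.237).

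In basal GFP+ cells, mutant arrays had more of the ligands Cxcl2, Cxcl12, Cx3cl1, Ccl7 and Cxcl10 and less Cxcl14 and Ccl19 than control arrays. GFP marks Lgr5, the transgene or both in mutant cells and Lgr5 alone in control cells. Genotype and the cells gated therefore cannot be told apart here. Of the 53 members 12 were called, 5 higher and 7 lower, which is 22.6% of members against 12.6% of all genes. By direction, 4.74% of all genes were called higher and 7.81% lower. All 5 higher calls were ligands above background in the mutant, whereas 4 of the 7 lower calls (Cxcl9, Cxcr1, Ccr1 and Ackr2) were above background in neither group. The median difference was -0.16 over the members and -0.10 over all genes, and it was -0.18 over the 29 members above background in neither group. All mutant arrays lay below all control arrays for 23 members (25.2% of all genes) and above them for 5 (10.1%).

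Cxcl2 had 9.47, 10.10 and 7.95 in mutant basal GFP+ cells, against 5.89, 6.60 and 5.26 in control basal GFP+ cells. All mutant arrays were above all control arrays (3.25 ± 0.46, adjusted p = 0.000293). Cxcl12 had 9.63, 9.96 and 9.49 in the mutant, against 7.45, 8.42 and 7.65 in the control (1.86 ± 0.25, adjusted p = 0.000176). Cx3cl1 had 10.07, 10.24 and 9.64 in the mutant, against 8.26, 7.70 and 7.36 in the control, again with no overlap (2.21 ± 0.34, adjusted p = 0.000613). These 3 calls held without any single array, with differences of 2.79 to 3.87 for Cxcl2, 1.66 to 2.15 for Cxcl12 and 2.00 to 2.45 for Cx3cl1. When the 6 arrays were fitted alone, Cx3cl1 kept its call (adjusted p = 0.0379), while Cxcl2 (0.0923) and Cxcl12 (0.0559) had adjusted p above 0.05.

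Ccl7 had 8.82, 9.29 and 8.35 in mutant basal GFP+ cells, against 4.97, 7.76 and 7.61 in control cells (2.04 ± 0.56, adjusted p = 0.0273). Control array 1 was the low one, and without it the difference was 1.14 (adjusted p = 0.0985). The Ccl7 call was also lost without mutant array 1 or 2 (adjusted p = 0.072 and 0.094) and after quantile normalization (adjusted p = 0.0709). Cxcl10 had 6.74, 6.06 and 4.85 in mutant cells, against 4.44, 4.37 and 4.45 in control cells, where 2 of 3 arrays were above the limit (1.47 ± 0.43, adjusted p = 0.0358). The mutant arrays spread widely but stayed above the control ones. The Cxcl10 call was lost without any array but mutant array 3 (adjusted p 0.0505 to 0.153). Ccl2, which had 8.72, 9.52 and 8.34 in mutant cells, against 8.77, 7.65 and 4.90 in control cells, overlapped between the groups and did not pass the test (1.75, adjusted p = 0.109). Without control array 1 it passed (2.58, adjusted p = 0.0355).

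Cxcl14 had 11.00, 10.89 and 11.16 in mutant basal GFP+ cells, against 11.79, 11.95 and 11.89 in control cells, with no overlap (-0.86 ± 0.21, adjusted p = 0.0171). Its call was lost without mutant array 1 or 2 or control array 3 (adjusted p 0.0513 to 0.062). Ccl19, a ligand of Ccr7 that guides T and dendritic cells, had 6.90, 6.43 and 6.82 in mutant cells, against 8.92, 7.30 and 8.52 in control cells (-1.53 ± 0.48, adjusted p = 0.0469). That call was lost without any array but control array 2 (adjusted p 0.0889 to 0.161). Ccl19 has near-identical copies in the mouse genome and its probe sets disagreed, so its values are uncertain. Cxcl9, an interferon-induced ligand, had 3.95, 4.05 and 4.08 in mutant cells, all below the limit, against 4.46, 5.87 and 4.45 in control cells, where 2 of 3 arrays were above it. It was lower in the mutant (adjusted p = 0.0433) but above background in neither group, so no fold is given. The Cxcl9 call was lost without control array 2 (adjusted p = 0.12), without any mutant array (adjusted p 0.0844 to 0.113) and after quantile normalization (adjusted p = 0.153).

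The receptors called in mutant against control basal GFP+ cells were all lower and all small in size. Ccr7, the receptor of Ccl19, had 5.08, 4.99 and 5.03 in mutant cells, against 5.68, 5.33 and 5.69 in control cells (-0.54 ± 0.09, adjusted p = 0.00195), and this call held without any single array. Ackr2, a scavenger of CC ligands, had 3.99, 4.22 and 4.08 in mutant cells, all below the limit. Control cells had 4.42, 4.69 and 4.66 (lower in the mutant, adjusted p = 0.0085). Ackr2 was above background in neither group, so no fold is given. Quantile normalization ended the Ackr2 call (adjusted p = 0.0639). Cxcr1, a receptor of neutrophils, had 4.17, 4.13 and 4.21 in mutant cells, against 4.58, 4.26 and 4.44 in control cells (adjusted p = 0.0401). Ccr1, a receptor of monocytes, had 3.75, 3.69 and 3.77 in mutant cells, against 3.89, 3.93 and 3.96 in control cells (adjusted p = 0.041). For Cxcr1 1 array of each group was above the limit and for Ccr1 none, so no fold is given, and quantile normalization ended both calls (adjusted p = 0.399 and 0.628). The Cxcr1 call was lost without any array but control array 2 (adjusted p 0.0659 to 0.156) and the Ccr1 call without any of the 6 (0.0511 to 0.129). Cxcr4 had 7.37, 7.56 and 7.31 in mutant cells, against 7.65, 7.73 and 5.87 in control cells (0.33, adjusted p = 0.617). Ackr3 had 7.62, 7.96 and 7.52 in mutant cells, against 8.28, 8.33 and 8.78 in control cells (-0.76, adjusted p = 0.0619), and it passed under 3 alternatives, among them quantile normalization (-1.06, adjusted p = 0.0278).

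**Figure D3:**
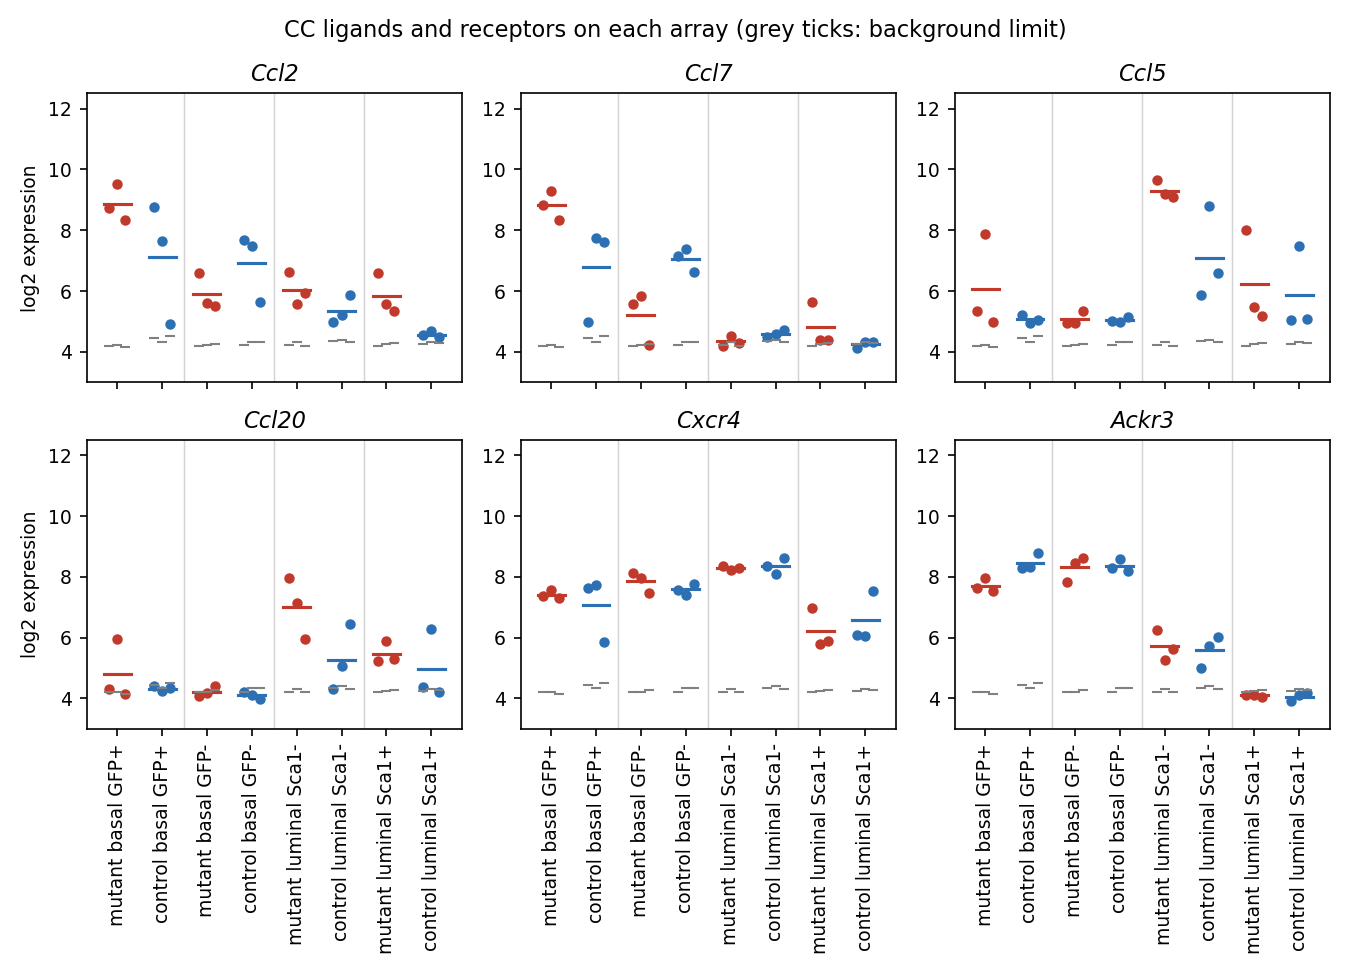
Log2 levels of 4 CC ligands, Cxcr4 and Ackr3 on each array, drawn as in the plot of CXC ligands: red points are mutant and blue points control arrays, bars are means of 3 arrays and grey ticks the background limits. Ccl7 is highest on the 3 mutant basal GFP+ arrays (8.35 to 9.29), and Ackr3 lies below the limits on all luminal Sca1+ arrays.

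The same mutant cells were also set against control basal GFP- cells. There 5 members were called (4 higher against 2.29% of all genes, 1 lower against 0.928%; in all 9.43% against 3.22%). Cxcl2 (2.85 ± 0.46, adjusted p = 0.00103), Cxcl12 (2.33 ± 0.25, adjusted p = 1.77e-05) and Cx3cl1 (2.22 ± 0.34, adjusted p = 0.0006) were again higher in mutant basal GFP+ cells, and the comparisons share the mutant arrays. Cxcl1 was higher by 1.01 ± 0.24 (adjusted p = 0.0216; lost without mutant or control array 1 or 2, adjusted p 0.057 to 0.128). Cxcl14 was lower by -0.80 ± 0.21 (adjusted p = 0.0487; each of the 6 arrays, when left out, ended the call, with adjusted p between 0.072 and 0.171). Against control basal GFP+ cells Cxcl1 was not called (0.31, adjusted p = 0.374).

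Values of other cell types moved with these groups. In mutant against control basal GFP+ cells 4.74% of all genes were called higher and 7.81% lower. The 9 luminal markers had array means of 7.76 to 8.95 in mutant and 7.43 to 8.13 in control basal GFP+ cells, and 2 of 9 were called higher, Ehf (4.70) and Cdh1 (0.62). Of 10 fibroblast markers 2 were higher, Dcn (4.30) and Col1a2 (0.46), with array means of 5.15 to 5.36 in mutant and 4.80 to 4.89 in control cells. Of 19 measured leukocyte markers none was higher and Csf1r was lower (-0.30), with array means of 4.09 to 4.33 in mutant and 4.20 to 4.31 in control cells. Of 10 endothelial markers none was higher and 2 were lower, Vwf (-0.40) and Cldn5 (-0.30), with array means of 3.99 to 4.03 in mutant and 4.11 to 4.24 in control cells. Their part in the chemokine differences was not tested.

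Within mutant mice, basal GFP+ cells had more Cxcl12, Ccl7, Ccl2 and Cx3cl1 than basal GFP- cells. The 4 calls, all higher, made up 7.55% of members against 2.51% of all genes, of which 1.77% were called higher and 0.737% lower. Cxcl12 had 9.63, 9.96 and 9.49 in mutant GFP+ cells, against 7.54, 7.89 and 7.65 in mutant GFP- cells (2.00 ± 0.25, adjusted p = 8.85e-05). Ccl7 had 8.82, 9.29 and 8.35 in GFP+ cells, against 5.59, 5.84 and 4.21 in GFP- cells, where 2 of 3 arrays were above the limit (3.61 ± 0.56, adjusted p = 0.000898). Ccl2 had 8.72, 9.52 and 8.34 in GFP+ cells, against 6.59, 5.61 and 5.49 in GFP- cells (2.96 ± 0.72, adjusted p = 0.0346). Every GFP+ array was above every GFP- array for these 3 ligands. The Ccl2 call was lost without any array but GFP- array 1 (adjusted p 0.053 to 0.156). Cx3cl1 had 10.07, 10.24 and 9.64 in GFP+ cells, against 8.27, 8.50 and 8.57 in GFP- cells (1.53 ± 0.34, adjusted p = 0.0177; lost without GFP+ array 1 or 2 or GFP- array 1, adjusted p 0.0695 to 0.0897). Cxcl2 had 6.43, 8.03 and 7.85 in GFP- cells and did not pass the test (1.74), but it passed under 9 alternatives. Among them were the replicate block (adjusted p = 0.043), array weights (adjusted p = 0.0402), dim genes left out (adjusted p = 0.0348) and GFP+ array 3 left out (2.35, adjusted p = 0.00347). Of 9 luminal markers 2 were higher, Ehf (3.55) and Cdh1 (0.85), and 2 lower, Krt19 (-2.08) and Cldn3 (-1.18), with array means of 7.76 to 8.95 in mutant GFP+ and 8.17 to 8.47 in mutant GFP- cells. Of 10 fibroblast markers Col1a2 was higher (1.12), with array means of 5.15 to 5.36 in GFP+ and 4.70 to 5.09 in GFP- cells. Their part was not tested.

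In control mice, basal GFP+ against GFP- cells gave 0 called members (limma; 1.25% of all genes were called). Cxcl1 had 9.95, 9.48 and 9.37 in GFP+ cells, against 8.84, 8.66 and 9.20 in GFP- cells (0.70, adjusted p = 0.148). Cxcl12 had 7.45, 8.42 and 7.65 in control GFP+ cells, against 7.85, 6.94 and 7.30 in control GFP- cells, and the groups overlapped. Leaving out 1 array at a time gave 0 to 2 called members, and Ccr7 passed without GFP+ array 2 (0.44, adjusted p = 0.00916).

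Mutant against control basal GFP- cells likewise gave 0 called members (limma; 0.0602% of all genes). Ccl7 had 5.59, 5.84 and 4.21 in mutant GFP- cells, against 7.15, 7.37 and 6.62 in control GFP- cells, so all mutant arrays were lower and 1 was below the limit, yet the adjusted p was 0.491. Cxcl2 had 6.43, 8.03 and 7.85 in mutant GFP- cells, against 6.67, 6.12 and 6.19 in control cells (1.11, adjusted p = 0.751). Cx3cl1 had 8.27, 8.50 and 8.57 in mutant GFP- cells, against 8.30, 7.85 and 7.13 in control cells (0.69, adjusted p = 0.783). Both overlapped between the genotypes.

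The genotype difference itself differed between the basal populations for 2 members, both higher (1.07% of all genes, 0.772% higher and 0.301% lower). For Cxcl12 the difference in GFP+ cells exceeded that in GFP- cells by 1.53 ± 0.35 (adjusted p = 0.0436), and for Ccl7 by 3.88 ± 0.80 (adjusted p = 0.0211). The Cxcl12 value was lost without any array but control GFP+ array 2 and control GFP- array 2 (adjusted p 0.0542 to 0.116). The Ccl7 value was lost without mutant GFP+ array 2, mutant GFP- array 3 or control GFP- array 2 (adjusted p 0.0532 to 0.0587).

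Mutant luminal Sca1- cells had more Cxcl14 and less Cxcl17 than control luminal Sca1- cells, which were GFP-. These 2 calls are 3.77% of members, against 0.727% of all genes (0.557% higher and 0.171% lower). Cxcl14 had 7.77, 7.21 and 7.62 in mutant cells, against 5.30, 5.35 and 5.10 in control cells (2.28 ± 0.21, adjusted p = 1.13e-05), and it held without any single array (2.16 to 2.44). Cxcl17 had 6.29, 7.30 and 6.95 in mutant cells, against 8.06, 7.85 and 8.30 in control cells (-1.23 ± 0.26, adjusted p = 0.0313). No mutant array overlapped a control array for either gene. The Cxcl17 call was lost without mutant or control array 1 or 3 (adjusted p 0.0689 to 0.172).

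Cxcl15 split the mutant luminal Sca1- arrays. It had 3.58, 3.45 and 8.59 in mutant cells, the first and second below background, against 9.02, 8.64 and 9.75 in control cells. The difference of -3.93 ± 0.90 had an adjusted p of 0.0511, and it passed under 7 alternatives. Among them were quantile normalization (adjusted p = 0.0422), the replicate block (adjusted p = 0.0271) and mutant array 3 left out, which leaves no mutant array above background (adjusted p = 4.58e-06). Ccl5 had 9.64, 9.19 and 9.08 in mutant cells, against 5.88, 8.80 and 6.58 in control cells (2.22, adjusted p = 0.32). Ccl20 had 7.96, 7.14 and 5.97 in mutant cells, against 4.32, 5.07 and 6.44 in control cells (1.75, adjusted p = 0.246). Neither passed, and control array 2 of Ccl5 and control array 3 of Ccl20 were the high ones.

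In mutant against control luminal Sca1- cells 0.557% of all genes were called higher and 0.171% lower. Basal markers moved with the mutant luminal Sca1- group. Their array means were 6.43 to 7.05 in mutant and 5.12 to 5.28 in control cells, and 3 of 9 were called higher, Krt5 (3.29), Krt17 (2.15) and Krt14 (2.46). Leukocyte markers had array means of 4.45 to 4.69 in mutant and 4.22 to 4.51 in control cells, and 1 of 19 was higher, Cd68 (1.52). Of 10 fibroblast markers 1 was lower, Dcn (-3.29), with array means of 4.39 to 4.66 in mutant and 4.87 to 4.88 in control cells. The part of these cell types in the Cxcl14 and Cxcl17 differences was not tested.

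In luminal Sca1+ cells, mutant against control gave 0 called members (limma; 0.777% of all genes). Cxcl15 had 7.37, 8.47 and 9.93 in mutant cells, against 10.41, 10.18 and 10.85 in control cells, with every mutant array lower (-1.89, adjusted p = 0.645), and it passed only without luminal Sca1- array 3 of the mutant in the fit (adjusted p = 0.0404). Cxcl17 had 10.19, 9.54 and 9.83 in mutant cells, against 9.77, 8.65 and 8.93 in control cells (0.74, adjusted p = 0.345). Ccl2 had 6.60, 5.56 and 5.35 in mutant cells, against 4.56, 4.67 and 4.48 in control cells, with no overlap (1.27, adjusted p = 0.776).

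The genotype difference differed between the luminal populations for 2 members, 1 in each direction (0.161% of all genes, 0.0803% in each direction). For Cxcl14 that in Sca1+ cells was below that in Sca1- cells by -2.14 ± 0.30 (adjusted p = 0.00281), and no left-out array ended the call. For Cxcl17 it was above it by 1.96 ± 0.37 (adjusted p = 0.0375). The Cxcl17 value was lost without any of 8 of the 12 arrays, all but array 2 of mutant Sca1-, control Sca1- and mutant Sca1+ cells and array 1 of control Sca1+ cells (adjusted p 0.0685 to 0.108).

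Set against basal GFP+ cells, the genotype difference in luminal Sca1- cells differed for 3 members, 1 higher and 2 lower (1.03% of all genes, 0.381% higher and 0.647% lower). It was higher for Cxcl14 by 3.14 ± 0.30 (adjusted p = 9.87e-06), with more Cxcl14 in mutant luminal Sca1- and less in mutant basal GFP+ cells than in their controls. It was lower for Cxcl2 by -2.96 ± 0.65 (adjusted p = 0.0318) and for Cxcl12 by -1.56 ± 0.35 (adjusted p = 0.0368). Cxcl2 had 11.38, 11.44 and 11.46 in mutant luminal Sca1- cells, against 10.97, 11.34 and 11.09 in control cells, and the small luminal difference did not pass. The Cxcl2 value was lost without any array but mutant basal array 3 and control basal array 2 (adjusted p 0.0531 to 0.0855). The Cxcl12 value was lost without any of 9 of the 12 arrays (0.0548 to 0.109). It held without mutant basal array 3, control basal array 2 or mutant luminal array 1.

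**Figure D4:**
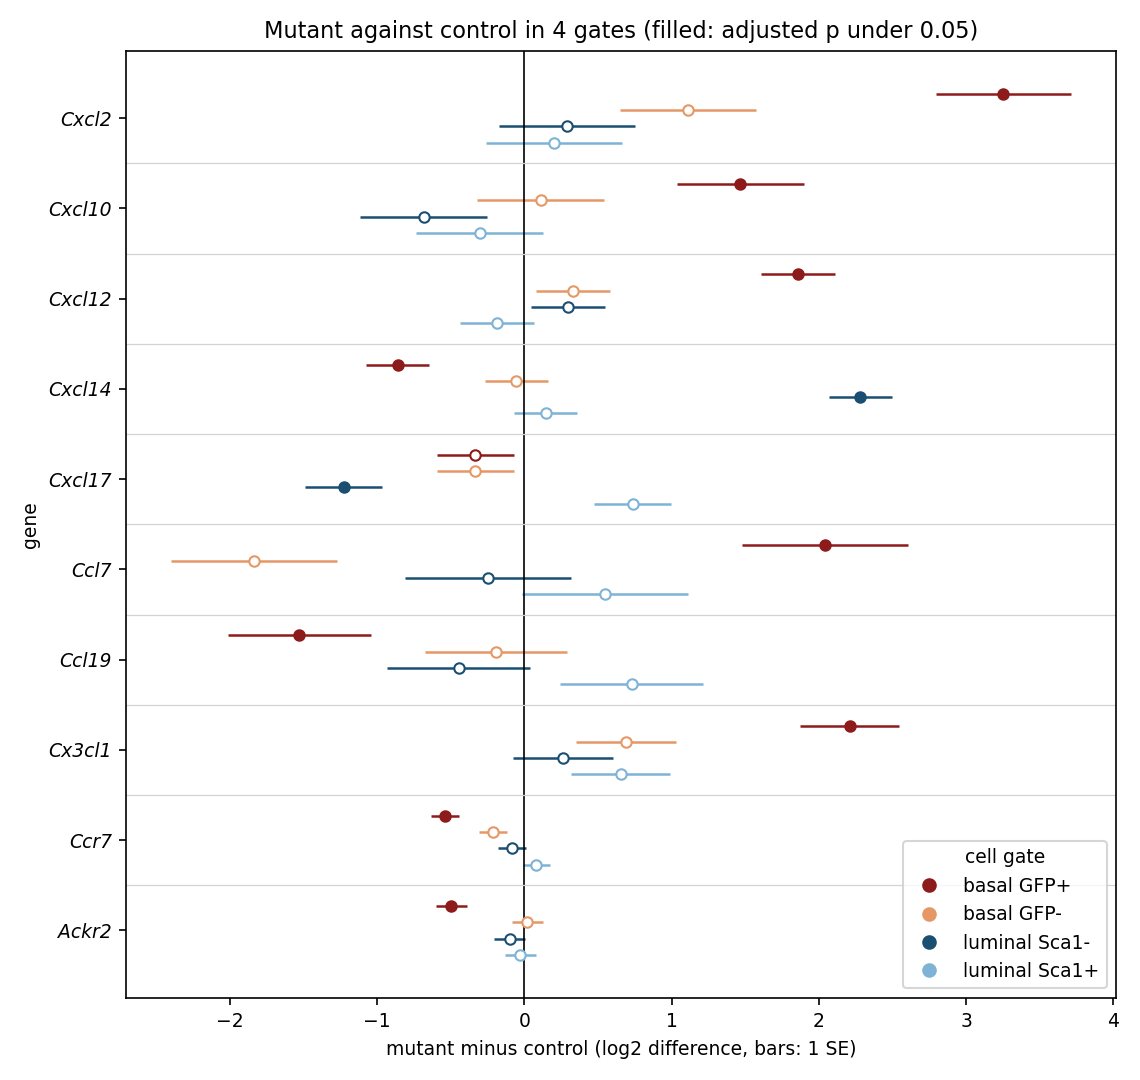
Mutant minus control log2 difference (± 1 SE) in the 4 cell populations for 10 members, with filled points where the adjusted p is under 0.05. Cxcl2, Cxcl12 and Cx3cl1 are above 0 with filled points in basal GFP+ cells, and Cxcl14 is below 0 there and above 0 in luminal Sca1- cells.

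Genes that act beside the chemokines were read from fixed lists. Of 27 measured genes of NF-kB and cytokine signalling, which induce many chemokines, 7 were called in mutant against control basal GFP+ cells, 5 higher and 2 lower. Among all genes 12.6% were called there, 4.74% higher and 7.81% lower. Csf1, a macrophage growth factor, was higher (1.51, adjusted p = 0.00118), as were the adhesion molecule Vcam1 (2.91, adjusted p = 0.00341) and the cytokine Lif (2.84, adjusted p = 0.00428). Cebpd, a transcription factor of the acute phase, was lower (-1.17, adjusted p = 0.0116). The list had a median of 0.10 against -0.10 over all genes. In mutant GFP+ against GFP- basal cells 3 were higher (Vcam1 3.99, Rel 1.79 and Nfkbia 0.75) and Cebpd was lower (-1.27). Among all genes 1.77% were higher and 0.737% lower in that comparison.

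In control luminal Sca1- against basal GFP- cells, 10 of the 27 were higher and 5 lower, against 4.93% and 4.9% of all genes. Lif (5.71), the NF-kB subunit Nfkb2 (2.02) and Tnf (4.35) were higher there, beside Cxcl1 and Cxcl2, and the cytokine Il17b was lower (-4.59). In control luminal Sca1+ cells 9 were higher and 6 lower, against 7.35% and 5.77% of all genes. Between Sca1+ and Sca1- luminal cells none was higher, while 5 were lower in mutant mice and 4 in control mice (Csf1 -2.30, Cebpd -2.17, Icam1 -1.38 and Csf3 -2.66). The shares of all genes called lower were 1.85% in mutant and 1.61% in control mice. Mutant against control luminal cells gave 1 call in each gate, Il17b, higher in Sca1- (3.10, adjusted p = 5.09e-07) and Sca1+ cells (3.59, adjusted p = 3.03e-08). Among all genes 0.727% were called in Sca1- and 0.777% in Sca1+ cells.

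Of 25 measured genes that act below chemokine receptors, 5 were called in mutant against control basal GFP+ cells, 2 higher and 3 lower. The share of all genes called there was 12.6%, with 4.74% higher and 7.81% lower. Elmo1, which activates Rac with Dock proteins, was higher (1.66 ± 0.17, adjusted p = 1.14e-05), as was the inhibitory G protein subunit Gnai1 (1.63, adjusted p = 0.0108). The lower ones were small, among them Plcb2 (-0.23) and Rgs14 (-0.34). Elmo1 was also higher in mutant GFP+ than in GFP- basal cells (1.62). None of the 25 was called in mutant against control basal GFP-, luminal Sca1- or luminal Sca1+ cells.

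Of 13 other genes of the chemokine system, among them the member Cxcl17, none was called in mutant against control basal GFP+ cells (12.6% of all genes). Ccrl2, a receptor that presents chemerin, was higher in luminal Sca1- than in basal cells, by 2.74 in mutant (adjusted p = 2.66e-06) and 2.59 in control mice (adjusted p = 4.82e-06). It was lower in Sca1+ than in Sca1- luminal cells, by -3.21 in mutant and -2.62 in control mice. Cmklr1, the signalling receptor of chemerin, was lower in mutant GFP+ than in GFP- basal cells (-1.07, adjusted p = 0.0319).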

How the data were processed

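The authors deposited log2 expression values for each probe set and array. The submitters' processing notes name affy, and background correction, normalization and summarization are not given in the sources used here. Values ran from 2.59 to 13.54 and array medians from 4.39 to 4.55. Of 34760 probe sets, 21640 had 1 gene symbol, and 21553 of these matched a RefSeq gene. The other 13120 were fitted apart. Where a gene had more than 1 probe set (954 of 19937), that of highest mean was used.

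A single limma fit (limma 3.58.1, R 4.3.3) estimated 8 group means, leaving 16 residual degrees of freedom, and moderated the standard errors. P-values are two-sided and Benjamini-Hochberg adjusted over all genes within each of 16 contrasts, called under 0.05. Errors of levels are SDs of 3 arrays and errors of differences SEs of the fit. The fit was tested on simulated data. Tables and figures were made with Python 3.11.15 (pandas 2.3.3, numpy 2.4.6, matplotlib 3.10.9).

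Named with array values are members called in a contrast or above background in a group, members at the limit by ranges. Of each gene list up to 4 called genes with the smallest p are named, and always Ptprc, Krt5, Krt14, Krt8, Krt18, Lgr5 and Pik3ca. Members and lists were chosen with earlier results of these data known. The cells came from pools of mice in 3 sortings, so groups may share a pool or a sorting. The main fit of group means does not use such pairing. A p-value reflects how the arrays within groups differ, with 1 spread assumed for all 8 groups. Precision is bounded by having only 3 arrays a group. Alternatives were quantile normalization, dim genes left out, only the groups compared, the control basal GFP+ arrays left out, a replicate block, array weights, trend and robust moderation, the mean of probe sets, each array left out in turn, and other background limits.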

Additional observations from a re-analysis of the deposited data

Results flagged for a closer look

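The difference of the genotype effects itself passed the test for 7 member and population pairs, with mutant minus control as the effect. In basal GFP+ minus basal GFP- cells, Cxcl12 stood at 1.53 (adjusted p = 0.0436) and Ccl7 at 3.88 (adjusted p = 0.0211). In luminal Sca1+ minus luminal Sca1- cells, Cxcl14 stood at -2.14 (adjusted p = 0.00281) and Cxcl17 at 1.96 (adjusted p = 0.0375). In luminal Sca1- minus basal GFP+ cells, Cxcl14 stood at 3.14 (adjusted p = 9.87e-06), Cxcl2 at -2.96 (adjusted p = 0.0318) and Cxcl12 at -1.56 (adjusted p = 0.0368). Cxcl14 in luminal Sca1- minus basal GFP+ cells was the only one of the 7 called under every alternative tried. Groups of 3 arrays were not tested for single arrays that stand apart.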

How the results depend on the processing

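No called difference of a member turned its sign under any alternative that refitted it. The 36 alternatives include the other background limits, which refit no difference, and some settings did not apply to every contrast. Of 83 calls, 40 held under every refit that applied to them. When only the arrays of the groups compared were fitted, 35 were lost, where fewer arrays estimate the spread. With those arrays alone the called members numbered 2 (12 in the report) in mutant against control basal GFP+ cells, 1 (2) in luminal Sca1- cells, 2 (4) in mutant GFP+ against GFP- basal cells, 4 (8) and 2 (5) in mutant and control Sca1+ against Sca1- cells, and 3 (5) in mutant basal GFP+ against control basal GFP- cells. The differences of effects then gave 0 (2) for basal GFP+ minus GFP-, 0 (2) for luminal Sca1+ minus Sca1-, and 1 (3) for luminal Sca1- minus basal GFP+ cells. The basal GFP+ minus GFP- count was also 1 under quantile normalization, the replicate block, and trend and robust moderation, and the luminal Sca1+ minus Sca1- count was 1 without the control basal GFP+ arrays and with the replicate block.

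Leaving out 1 array at a time gave 5 to 15 calls in mutant against control basal GFP+, 0 to 0 in basal GFP-, 1 to 3 in luminal Sca1- and 0 to 1 in luminal Sca1+ cells. It gave 2 to 7 in mutant and 0 to 2 in control GFP+ against GFP- basal cells, and 3 to 6 in mutant basal GFP+ against control basal GFP- cells. Luminal Sca1- against basal cells gave 7 to 12 in mutant and 10 to 12 in control mice, and luminal Sca1+ against basal cells 8 to 9 in mutant and 8 to 11 in control mice. Sca1+ against Sca1- cells gave 3 to 8 in mutant and 3 to 6 in control mice, and the differences of effects 0 to 3, 1 to 2 and 1 to 4. Members above background in at least 1 group numbered 29 to 32, against 63.5% to 64.1% of all genes. They numbered 37 with the 90th percentile as the limit (72.7% of all genes) and 20 with the 99th (49.1%). With at least 2 of 3 arrays they numbered 36 (68.3%), and 20 lay above the median of all genes (53.4%).

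In mutant against control basal GFP+ cells quantile normalization gave 513 genes called higher and 587 lower, against 946 and 1558 without it. The share of higher calls moved to 63.8% from 76.6% in luminal Sca1- cells, to 54.5% from 40.4% in control GFP+ against GFP- basal cells, and to 45.7% from 56.5% in control Sca1+ against Sca1- cells.

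The replicate number as a block gave 9 called members in mutant against control basal GFP+ cells, 3 in luminal Sca1- cells and 6 in mutant GFP+ against GFP- basal cells, against 12, 2 and 4 without it. Same-numbered arrays of different groups had deviations correlated at -0.08 to 0.18, over 0.1 in 6 of 84 pairs. For arrays of other numbers the range was -0.14 to 0.12, over 0.1 in 1 of 168 pairs. Whether the numbers pair the samples cannot be told from these correlations.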

Other observations

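A probe set that carries several Ccl21 symbols, ligands of Ccr7 known from lymphatic vessels and lymph nodes, had 5.69, 7.90 and 6.56 in mutant and 8.04, 6.34 and 5.61 in control basal GFP- cells. Its group means elsewhere lay between 4.16 and 4.31. It cannot be assigned to 1 gene and was fitted with the probe sets of several or no symbols. There it was lower in mutant basal GFP+ than in mutant basal GFP- cells (-2.56 ± 0.47 SE, adjusted p = 0.0356), and in control mice the difference was -2.36 (adjusted p = 0.0634). Endothelial markers had array means of 4.10 to 4.12 in mutant and 4.18 to 4.31 in control basal GFP- cells, and their part was not tested.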
